A study of Sus scrofa with 6 samples.

Results

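Brush border hydrolases are the digestive enzymes that enterocytes anchor in the apical membrane of their microvilli, with the catalytic domains facing the lumen. Disaccharidases split the sugars left by luminal digestion, peptidases shorten peptides from either end or cut within them, and phospholipase B1 removes fatty acids from dietary phospholipids. The products are then taken up by sodium-coupled and proton-coupled transporters in the same membrane. Levels of these enzymes vary along the length of the gut and change as piglets move from milk to solid feed.

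The 10 hydrolase genes looked for were the disaccharidases SI, MGAM, TREH and LCT, the genes of the peptidases ANPEP, ENPEP, CPO, MEP1A and MEP1B, and that of the phospholipase PLB1. Members were found by their pig Ensembl identifiers, and 8 of the 10 were matched by symbol to a row among the 21911 genes of the table. LCT, the lactase gene, and MEP1A, the gene of the meprin alpha subunit, matched no identifier by symbol and are not analysed here. All 8 passed the filter on low values, a mean of at least 1 FPKM over the 6 libraries, as did 11471 genes in all. CPO and PLB1 passed it through the SMP libraries, their Control means being 0.226 and 0.764 FPKM.

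The libraries came from gut of 3 pig samples labelled SMP and 3 labelled Control. By the design text, a metasilicate-based alkaline drinking water was given to the treated piglets, here labelled SMP, and the others were controls. The sources used here do not give strain, age, sex, diet, dose, duration or gut segment. They also do not tie each library to a separate piglet, and the p-values then measure the spread between these samples. Values are FPKM (reads per kilobase of gene and per 1000000 reads of the library total). Differences are SMP minus Control in log2(FPKM + 1), which understates changes of low genes, and adjusted p-values are from limma with Benjamini-Hochberg adjustment over all 11471 genes, called at 0.05.

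Recovered library totals were 15927028 to 20712701 reads or read pairs, so that 3 reads in a gene of 2000 bases equalled 0.0724 to 0.0942 FPKM. General epithelium markers summed to 3350.1 to 4038 FPKM in SMP and 3909.9 to 4721 FPKM in Control (11 of 12 with a row), and markers of absorptive enterocytes to 8875 to 9840.5 FPKM in SMP and 10256 to 14296 FPKM in Control (9 of 12 with a row). Of these 9 enterocyte markers, all tested, the apolipoprotein gene APOA1 was lower, at 4540, 5010.3 and 3959 FPKM in SMP against 6590, 8976 and 9842 FPKM in Control (adjusted p = 0.0495, limma), and 8 did not pass, with 4 positive and 5 negative log2 differences in all. By comparison, 2.1% of all tested genes were called lower. The enterocyte sum rests largely on APOA1, whose mean was 4503 of 9509 FPKM in SMP and 8470 of 12401 FPKM in Control. FABP2, which encodes the intestinal fatty acid binding protein, was at 1154, 1211 and 2017 FPKM in SMP and 413, 659 and 743 FPKM in Control (adjusted p = 0.0612). Smooth muscle markers ranged from 1651 to 2252 FPKM in SMP and from 176 to 2876 FPKM in Control (9 of 9 with a row). SMP replicate 3 and Control replicate 2 stood apart from the others of their groups in an earlier analysis of these data, and results that rest on them are given with and without both.

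Of the 8 hydrolase genes, CPO and PLB1 were higher in SMP, TREH was lower, and SI, MGAM, ANPEP, ENPEP and MEP1B did not pass the test. Among all tested genes 3.5% were called higher, 2.1% lower and 5.6% in either direction. The median log2 difference was 0.24 over the 8 members and 0.09 over all tested genes. In a bulk sample, fewer cells of a type and less RNA per cell cannot be told apart. The values of the groups did not overlap in 3 of the 8 members, which were the 3 called ones, against 32.6% of all tested genes.

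**Figure D1:**
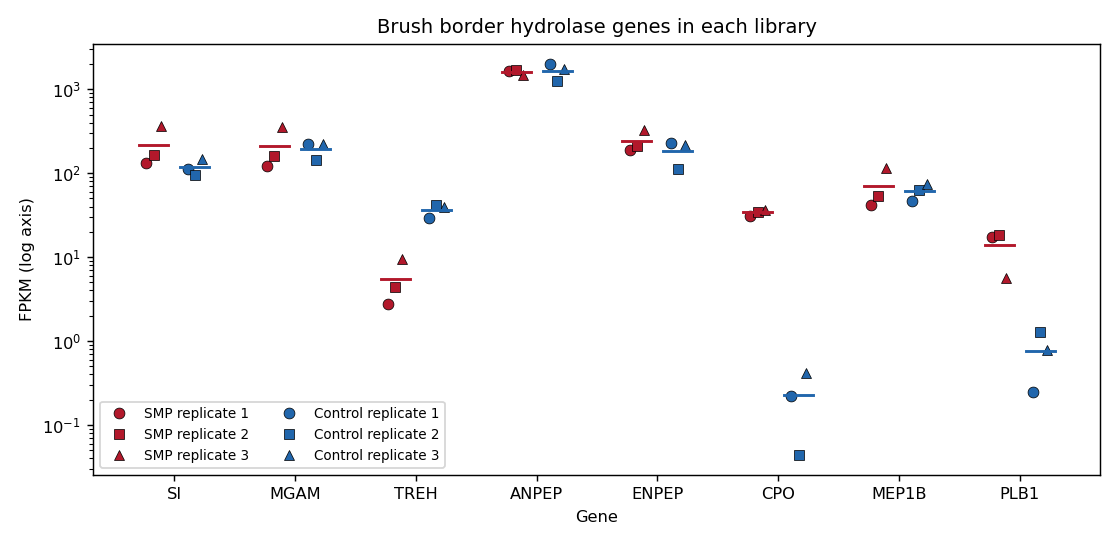
FPKM (log axis) of the 8 hydrolase genes in each library, with SMP in red to the left of Control in blue; bars are group means and marker shapes are replicate numbers. CPO and PLB1 lie higher and TREH lower in all 3 SMP libraries, while the groups overlap in the other 5 genes.

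SI encodes sucrase-isomaltase, which digests sucrose and the branch points of starch. It had 132, 164 and 363 FPKM in SMP replicates 1, 2 and 3, against 113, 95.5 and 147 FPKM in Control replicates 1, 2 and 3. The groups overlapped, and the highest value was that of SMP replicate 3. The means were 219.6 ± 125 FPKM in SMP and 119 ± 26.5 FPKM in Control (SD, n = 3 each), a log2 difference of 0.76 with a 95% interval of -0.14 to 1.67 (adjusted p = 0.264, limma). The difference was 0.19 without SMP replicate 3 and Control replicate 2 (adjusted p = 0.455). These libraries hold the highest SMP and the lowest Control value of SI, so leaving them out lowers its difference by construction.

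MGAM encodes maltase-glucoamylase, the paralogue of SI that completes starch digestion to glucose. It had 122, 159.7 and 354 FPKM in SMP, against 221, 144 and 221 FPKM in Control. The SMP values lay on both sides of the Control values, with SMP replicate 3 again highest. The log2 difference was -0.01 with an interval of -0.96 to 0.94 (adjusted p = 0.990, limma). The sign was positive in 6 of 16 alternative settings. MGAM was called lower when SMP replicate 3 and Control replicate 2 were left out, with a difference of -0.66 (adjusted p = 0.0367). These libraries hold the highest SMP and the lowest Control value of MGAM, so leaving them out lowers its difference by construction. That fit called 10.8% of all tested genes lower, against 2.1% with all 6 libraries. MGAM2, the neighbouring paralogue, picked for naming with its values known, had 11.5, 10.5 and 12.9 FPKM in SMP and 11.7, 7.22 and 9.96 FPKM in Control (adjusted p = 0.423); the sources used here do not say how reads shared by these paralogues were assigned.

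The balance of these paralogous glucosidases varied less between the libraries of a group than either level. The SD of log2 values was 0.05 for the ratio, 0.76 for SI and 0.80 for MGAM in SMP, and 0.22, 0.31 and 0.35 in Control. The log2 ratio of MGAM to SI was -0.12, -0.04 and -0.03 in SMP replicates 1, 2 and 3, against 0.96, 0.59 and 0.58 in Control replicates 1, 2 and 3. Every SMP library had slightly less MGAM than SI, and every Control library had more MGAM than SI. The mean ratio was -0.06 ± 0.05 in SMP and 0.71 ± 0.22 in Control (SD, n = 3 each), a difference of -0.78 (two-sided exact permutation test, p = 0.1, the smallest that 3 against 3 allows; 0.2 after adjustment over the 2 ratios tested). The difference was -0.85 without SMP replicate 3 and Control replicate 2.

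**Figure D2:**
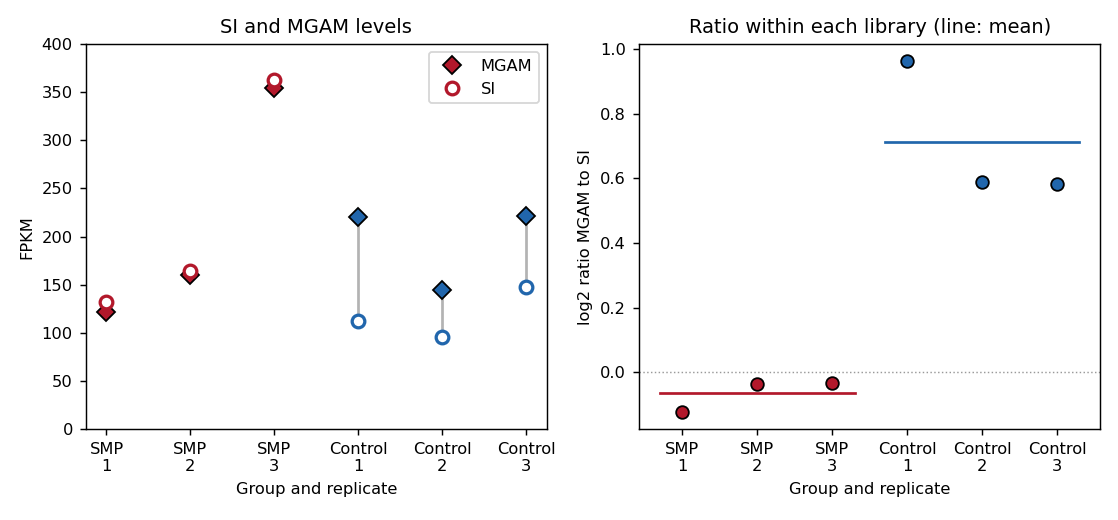
Left, FPKM of MGAM (filled diamonds) and SI (open circles) in each library; right, the log2 ratio of MGAM to SI, with group means as lines, SMP in red and Control in blue. The ratio lies between -0.12 and -0.03 in the 3 SMP libraries and between 0.58 and 0.96 in the 3 Control libraries, although SMP replicate 3 has far higher levels of both genes than SMP replicates 1 and 2.

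TREH encodes trehalase, which splits trehalose, a sugar of fungi and insects. It had 2.74, 4.37 and 9.38 FPKM in SMP, against 29.2, 41.5 and 39.5 FPKM in Control. The highest SMP library stayed below the lowest Control library. The mean was 6.68-fold lower in SMP, at 5.50 ± 3.46 FPKM against 36.7 ± 6.60 FPKM in Control (SD, n = 3 each), with a log2 difference of -2.65, SE 0.37 (adjusted p = 0.0174, limma). TREH ranked 6512 by mean level among all 21911 genes in SMP and 1449 in Control. TREH no longer passed without Control replicate 1 (adjusted p = 0.0507) or 3 (0.0892) and without SMP replicate 1 (0.0586) or 2 (0.0924), while the difference stayed between -3.06 and -2.32 in all 16 alternatives. In these fits few of the genes called with all 6 libraries kept their call. They were 124 of 638 without Control replicate 1 and 46 of 639 without Control replicate 3. Without SMP replicates 1 and 2 in turn they were 53 of 636 and 42 of 633. As for SI and MGAM, the highest SMP value of TREH was that of replicate 3.

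Among the peptidases, ANPEP and ENPEP encode the related aminopeptidases N and A, zinc enzymes that release neutral and acidic residues from the amino end; in pigs ANPEP is also the receptor of transmissible gastroenteritis virus. ANPEP had 1663, 1675 and 1460.0 FPKM in SMP, against 2026, 1240.0 and 1735 FPKM in Control. It was the most abundant of the 8 genes in every library, ranking 21 of all genes by mean level in SMP and 26 in Control. The log2 difference was -0.03 with an interval of -0.53 to 0.46 (adjusted p = 0.939, limma), the narrowest interval among the 5 members that did not pass, and it was -0.17 without SMP replicate 3 and Control replicate 2 (adjusted p = 0.356). ANPEP made up 75.6%, 72.1% and 54.7% of the summed FPKM of the 8 genes in SMP replicates 1, 2 and 3, and 76.0%, 73.0% and 71.3% in Control replicates 1, 2 and 3.

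ENPEP had 191, 213 and 328 FPKM in SMP, against 228, 114 and 215 FPKM in Control. The groups overlapped, and Control replicate 2 was the lowest of the 6. The log2 difference was 0.42 with an interval of -0.36 to 1.19 (adjusted p = 0.468, limma), and it was -0.13 without SMP replicate 3 and Control replicate 2 (adjusted p = 0.361). These libraries hold the highest SMP and the lowest Control value of ENPEP, so leaving them out lowers its difference by construction. The log2 ratio of ENPEP to ANPEP was -3.11, -2.97 and -2.15 in SMP and -3.15, -3.44 and -3.01 in Control (difference 0.45, two-sided exact permutation test, p = 0.2), and the difference was 0.04 without SMP replicate 3 and Control replicate 2. The same holds for this ratio, which was highest among SMP and lowest among Control in these libraries.

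MEP1B encodes the beta subunit of meprin, a membrane metalloprotease that cuts within proteins and, in mice, releases the mucin MUC2 from the epithelium. It had 41.5, 53.2 and 114 FPKM in SMP, against 46.9, 63.2 and 74.9 FPKM in Control, with overlapping groups. The log2 difference was 0.06 with an interval of -0.84 to 0.96 (adjusted p = 0.938, limma), against -0.33 without SMP replicate 3 and Control replicate 2 (adjusted p = 0.371). Its sign was negative in 4 of 16 alternatives, as that of ANPEP was positive in 4 and that of ENPEP negative in 1.

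CPO encodes carboxypeptidase O, which in humans is tethered to the enterocyte surface by a lipid anchor and removes acidic residues from the carboxyl end of peptides. It had 30.9, 34.8 and 36.8 FPKM in SMP, against 0.220, 0.0436 and 0.414 FPKM in Control. These Control values stood for 5, 1 and 11 reads, and the SMP values for 907, 1027 and 883 reads. The coefficient of variation was 8.92% over the 3 SMP libraries, and the Control libraries lay near the limit of detection. Summed over libraries and divided by the totals, reads were 144-fold higher in SMP (95% exact interval 90.0 to 248, for counting error only). The log2 difference of 4.85, SE 0.16, was called by limma (adjusted p = 1.71e-05), and it was called in all 16 alternatives, with adjusted p-values up to 0.00259. CPO ranked 1500 by mean level among all genes in SMP and 14106 in Control.

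Transcripts of pancreatic carboxypeptidases did not accompany CPO. CPA1 was at 0.0800, 0.0531 and 0.0262 FPKM in SMP and 0.0967, 0.184 and 0.0945 FPKM in Control. CPB1 was listed at 0 in every library other than SMP replicate 2 (0.0378 FPKM). The 4 of 11 exocrine pancreas markers with a row summed to 1.02 to 2.22 FPKM in SMP and 0.902 to 1.69 FPKM in Control.

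PLB1 encodes phospholipase B1, a membrane enzyme that acts on phospholipids and retinyl esters. It had 17.3, 18.6 and 5.70 FPKM in SMP, against 0.249, 1.27 and 0.773 FPKM in Control. Every SMP library was above every Control library, but SMP replicate 3 was at 0.317 times the mean of SMP replicates 1 and 2, the reverse of its place for the disaccharidases. Summed reads per library total were 18.8-fold higher in SMP (95% exact interval 16.2 to 21.9, counting error only), and the log2 difference was 2.97, SE 0.44 (adjusted p = 0.0207, limma). PLB1 no longer passed without Control replicate 1 (adjusted p = 0.0602) or 3 (0.0976), without SMP replicate 1 (0.0962) or 2 (0.0956) and with no filter on low values (0.0530). As given for TREH, few calls over all genes held with those libraries left out, and 206 of 642 held with no filter. The difference of PLB1 was 3.67 without SMP replicate 3 and Control replicate 2 (adjusted p = 0.00316). These libraries hold the lowest SMP and the highest Control value of PLB1, so leaving them out raises its difference by construction. That fit called 15.8% of all tested genes higher.

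**Figure D3:**
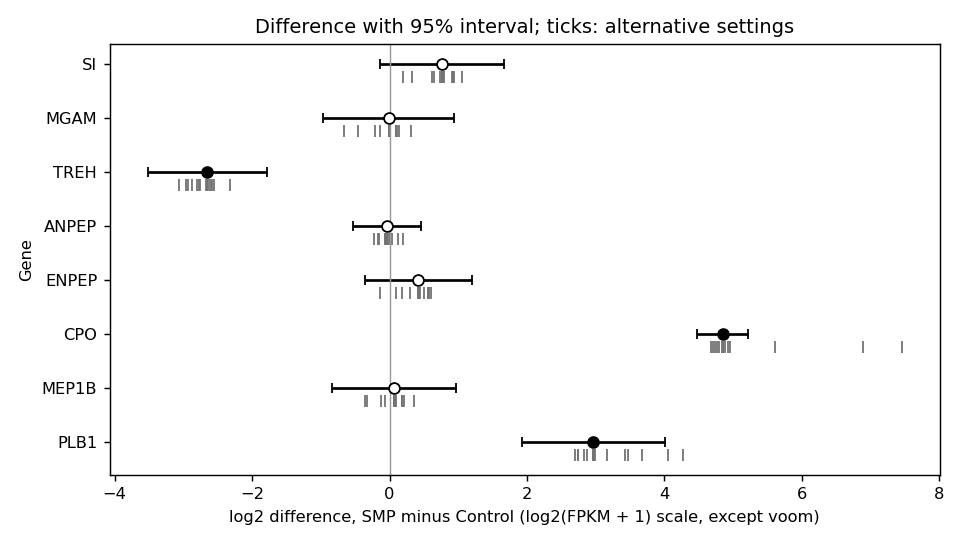
Log2 difference of each hydrolase gene, SMP minus Control, with its 95% interval. Filled circles have an adjusted p below 0.05 and open circles did not pass. Grey ticks are the difference in 16 alternative settings. Voom and the pseudocounts of 0.1 and 0.5 are on other scales, on which CPO and PLB1 differed more. CPO, PLB1 and TREH lie away from 0 in every setting, while the ticks of MGAM, ANPEP, MEP1B and ENPEP fall on both sides of 0.

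By mean level, the order in SMP ran ANPEP, ENPEP, SI, MGAM, MEP1B, CPO, PLB1 and TREH, and in Control ANPEP, MGAM, ENPEP, SI, MEP1B, TREH, PLB1 and CPO. The ranges of neighbours overlapped between ENPEP and SI, SI and MGAM, and PLB1 and TREH in SMP. In Control they overlapped between MGAM and ENPEP, ENPEP and SI, and PLB1 and CPO. The summed level of the 8 genes was 2398 ± 244 FPKM in SMP and 2266 ± 504 FPKM in Control (SD, n = 3 each).

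The mean log2 level of the general epithelium markers was 7.25, 7.23 and 7.10 in SMP and 7.25, 7.04 and 7.37 in Control, so scaling the libraries to it moved the differences little. VIL1, one of those markers and named with its values known, encodes villin, the actin-bundling protein of the microvillus core. It had 533, 574 and 792 FPKM in SMP, against 438, 427 and 511 FPKM in Control (adjusted p = 0.202). Of the 11 epithelium markers tested, 7 log2 differences were positive and 4 negative, and 0 passed in limma and 1 with voom (6.4% of all tested genes). The groups did not overlap in 5, against 32.6% of all tested genes. CLDN3 went the other way from VIL1, at 1278, 1081 and 767 FPKM in SMP and 1654, 1563 and 1873 FPKM in Control (adjusted p = 0.0930, limma).

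SMP replicate 3 differed from SMP replicates 1 and 2 in much of the digestive and uptake machinery. TREH, SI, MGAM and MEP1B were 2.64, 2.45, 2.52 and 2.41 times the mean of the other SMP libraries there, and ENPEP was 1.62 times. A ratio of at least 2 was found in 4 of the 8 hydrolase genes, 9 of 18 uptake genes, 4 of 16 other brush border enzyme genes, 3 of 23 microvillus genes and 1 of 20 transcription factor genes, and in 2.08% of all tested genes. Among uptake genes named after their values were seen, the sodium-glucose transporter gene SLC5A1 was at 202 FPKM in SMP replicate 3, against 76.0 and 103 FPKM in SMP replicates 1 and 2, and the peptide transporter gene SLC15A1 at 131, against 43.7 and 58.5 FPKM. This is a description of 1 library, with no test.

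Of 23 other brush border enzyme genes, 18 had a row and 16 were tested. XPNPEP2 was higher in SMP and 15 did not pass (median log2 difference 0.16), in a fit that called 3.5% of all tested genes higher and 2.1% lower. XPNPEP2 encodes a membrane aminopeptidase that removes residues before proline. It had 11.5, 12.9 and 7.20 FPKM in SMP, against 1.08, 1.44 and 1.20 FPKM in Control (log2 difference 2.33, SE 0.22, adjusted p = 0.00544, limma), and it was called in all 16 alternatives. The carboxypeptidase gene CPM was at 2.62, 3.39 and 5.06 FPKM in SMP and 2.76, 1.55 and 2.05 FPKM in Control, and the nucleotidase gene ENTPD8 at 19.8, 20.8 and 28.9 FPKM in SMP and 33.2, 26.4 and 38.1 FPKM in Control (adjusted p = 0.185 and 0.204). Leaving out SMP replicate 3 and Control replicate 2 gave 1 call higher and 5 lower among these genes, in a fit that called 15.8% of all tested genes higher and 10.8% lower.

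Of 25 microvillus genes, 24 had a row and 23 were tested, and 0 passed in limma (median 0.16). The unadjusted p was below 0.05 for 5 (25.8% of all tested genes), and 2 passed with voom on the recovered reads (6.4% of all tested genes), CDHR5 and TMIGD1. CDHR5, a protocadherin that links microvillus tips, was nearest to the threshold, at 245, 259 and 316 FPKM in SMP and 566, 400 and 531 FPKM in Control (log2 difference -0.86, adjusted p = 0.0508). TMIGD1 was at 24.8, 27.6 and 18.5 FPKM in SMP and 1.25, 6.51 and 7.72 FPKM in Control (adjusted p = 0.0534), and EPS8L2 at 53.1, 54.2 and 54.9 FPKM in SMP and 80.9, 70.1 and 83.8 FPKM in Control (0.0715). With SMP replicate 3 and Control replicate 2 left out, 1 was called higher and 7 lower (15.8% and 10.8% of all genes in that fit).

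Of 20 genes that take up or pass on the products of the hydrolases, 19 had a row and 18 were tested. SLC7A5 and SLC6A20 were higher in SMP and 16 did not pass (median -0.06), in a fit that called 3.5% of all tested genes higher and 2.1% lower. SLC7A5, the light chain of a transporter of large neutral amino acids, had 9.92, 9.42 and 8.88 FPKM in SMP, against 5.37, 4.10 and 4.24 FPKM in Control (log2 difference 0.91, adjusted p = 0.0226, limma). SLC6A20, the proline transporter of the apical membrane, had 11.2, 11.8 and 13.4 FPKM in SMP, against 8.16, 5.98 and 6.78 FPKM in Control (0.72, adjusted p = 0.0449). SLC3A2, the heavy chain partner of SLC7A5, was at 51.7, 50.3 and 48.3 FPKM in SMP and 89.3, 63.3 and 92.6 FPKM in Control (adjusted p = 0.0761). Without SMP replicate 3 and Control replicate 2, 2 were called higher and 7 lower (15.8% and 10.8% of all genes). SLC7A5 was called in 12 of 16 alternatives and SLC6A20 in 6. The list had 0 calls higher without Control replicate 3, SMP replicate 1 or SMP replicate 2, and 1 without each of the others.

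Of 22 transcription factors of enterocyte and disaccharidase genes, 21 had a row and 20 were tested, and 0 passed in limma (median -0.01). The unadjusted p was below 0.05 for 7, against 25.8% of all tested genes, and 0 passed with voom. HNF4A, a nuclear receptor of enterocyte differentiation, was at 85.1, 77.9 and 63.2 FPKM in SMP and 52.9, 32.9 and 46.4 FPKM in Control (log2 difference 0.78, adjusted p = 0.0832). KLF5 was at 109.6, 107 and 94.5 FPKM in SMP and 74.7, 62.1 and 78.9 FPKM in Control, and CREB3L3 at 215, 204 and 122 FPKM in SMP and 275, 319 and 324 FPKM in Control (adjusted p = 0.0909 and 0.0968). CDX2, chosen after seeing its values, binds the SI promoter in mammals. It had 277, 257 and 199 FPKM in SMP, against 174, 213 and 206 FPKM in Control (adjusted p = 0.354). Without SMP replicate 3 and Control replicate 2, 5 were called higher and 5 lower (15.8% and 10.8% of all genes).

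**Figure D4:**
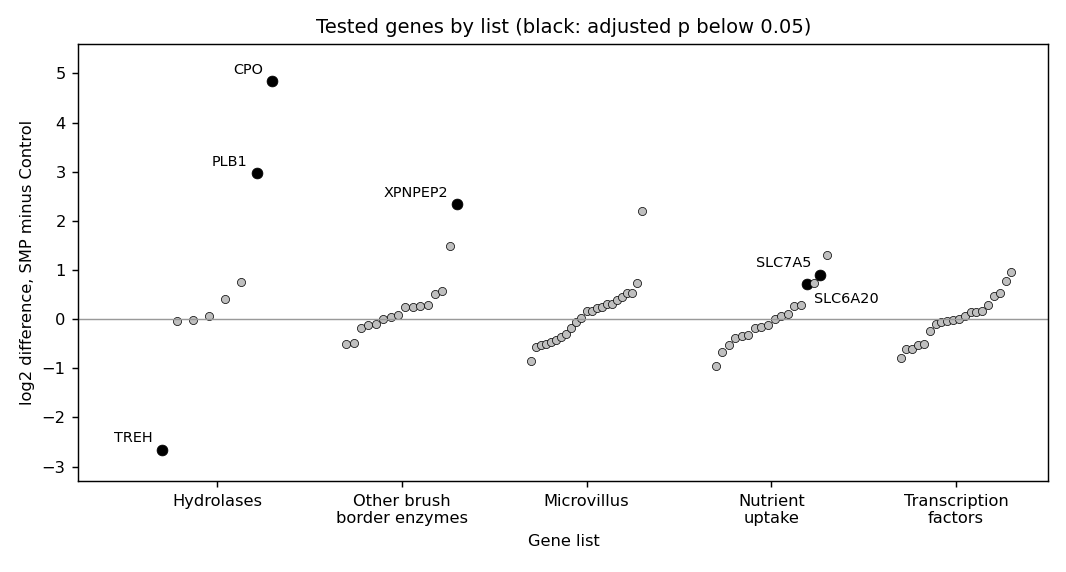
Log2 difference, SMP minus Control, of each tested gene in the hydrolase list and 4 related lists; black points have an adjusted p below 0.05 and are named. CPO, PLB1 and XPNPEP2 lie highest among the called genes and TREH lowest, and 0 microvillus or transcription factor genes are called.

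The profiles nearest to the called members over the 6 libraries, by the root mean square difference of mean-centred log2 values, were found among all tested genes with a symbol. For CPO they were the Y-linked gene EIF1AY (0.20), the anion exchanger gene SLC26A3 (0.53) and the carbonic anhydrase gene CA7 (0.65). EIF1AY was at 25.7, 29.6 and 23.9 FPKM in SMP and 0.187, 0 and 0.0320 FPKM in Control. KDM5D, also Y-linked, was at 1.24, 1.43 and 0.474 FPKM in SMP and listed at 0 in every Control library. Sex is not given by the labels, and for every gene compared here a difference of sex and one of treatment cannot be told apart. For PLB1 they were CA4 (0.30), GPR15LG (0.43) and XPNPEP2 (0.46). Like PLB1 each of these was lowest among SMP libraries in replicate 3, which follows from choosing them by profile. For TREH they were EPHX2 (0.33), TMEM176A (0.34) and PRDM16 (0.39). EPHX2, the soluble epoxide hydrolase gene, was at 2.31, 4.02 and 14.6 FPKM in SMP and 19.9, 39.2 and 34.1 FPKM in Control (adjusted p = 0.0639, limma).

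Marker lists of other cell types were set beside these results, and the genes named from them were picked with their values known. Of 11 large intestine markers 9 had a row, none at 0 throughout, and 4 of 8 tested were higher (OTOP2, BEST4, CA4 and SLC26A3) and 1 lower (AQP8), with a median log2 difference of 1.61. Over all tested genes 3.5% were called higher and 2.1% lower. With voom 6 passed (6.4% of all tested genes), and the groups did not overlap in 8 (32.6% of all tested genes). The 9 with a row summed to 327 to 342 FPKM in SMP and 470 to 583 FPKM in Control, sums that rest mostly on MS4A12 (183 to 238 FPKM in SMP, 282 to 383 FPKM in Control, adjusted p = 0.0681) and on the water channel gene AQP8 (14.4 to 30.5 FPKM in SMP, 102 to 179 FPKM in Control). SLC26A3 was at 19.4 to 20.9 FPKM in SMP and 0.365 to 0.535 FPKM in Control, and passed the filter on low values through the SMP libraries. The 7 of 9 crypt and dividing cell markers with a row summed to 1535 to 2019 FPKM in SMP and 607 to 1113 FPKM in Control, mostly from OLFM4 (1394 to 1925 FPKM in SMP, 535 to 1014 FPKM in Control, adjusted p = 0.0591). Of the 6 tested, the proliferation genes TOP2A and MCM2 were higher and 4 did not pass, against 3.5% of all tested genes called higher. Goblet cell markers summed to 502 to 1418 FPKM in SMP and 1993 to 2262 FPKM in Control (6 of 8 with a row). Of these 6, 0 passed in limma and 0 with voom, and the unadjusted limma p was below 0.05 for 3 (25.8% of all tested genes). The goblet sum rests mostly on TFF3 (407 to 1224 FPKM in SMP, 1872 to 2143 FPKM in Control, adjusted p = 0.0944), while 4 of the 6 log2 differences were positive (median 0.28). Leukocyte markers summed to 73.9 to 90.9 FPKM in SMP and 104 to 162 FPKM in Control (9 of 9 with a row), and all 9 log2 differences were negative. Of these 9, 0 passed in limma and 1 with voom (6.4% of all tested genes). Their unadjusted limma p was below 0.05 for 4 (25.8% of all tested genes). The part of these markers in the differences of CPO, PLB1 and TREH was not tested. Gut segment was not given, and a difference of segment and one of treatment cannot be told apart.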

How the data were processed

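The authors deposited 1 FPKM value per gene and library for 21911 genes in 6 libraries, 3 SMP and 3 Control, grouped by the treatment label. The unit was read from the values. The submitters' processing notes list DESeq2 1.16.1, HISAT2 2.0.5 and StringTie without their roles, and the build mm10, a mouse build, whereas the identifiers are pig Ensembl genes, so no coordinates are given. The sources used here do not give the strand setting or the treatment of multiply mapped reads. Whole reads were recovered for 21911 genes (relative tolerance 5e-09) with totals of 15927028 to 20712701, which limits counting error to low genes. A gene name table matched 14153 identifiers. limma 3.58.1 in R 4.3.3, with an empirical Bayes trend, was fitted to log2(FPKM + 1) for genes with a mean of at least 1, and the step was tested on simulated data. The alternatives were other scalings, filters and pseudocounts, voom on recovered reads, the replicate number as a block, and libraries left out. The design named ratios of LCT to SI and MEP1A to MEP1B, which were not run because LCT and MEP1A matched no identifier by symbol.

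Members and lists were chosen with earlier results of these data known. Named were all members, genes of the 4 related lists that passed (or the smallest p up to 3 genes) and the 3 nearest profiles of each called member. CDX2, MGAM2, SLC5A1, SLC15A1, VIL1 and the marker genes were picked with their values known, and CPA1, CPB1 and genes next to called members by their kind or position. Floors and exact intervals cover counting error only. Some genes of the lists are not reported here.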

Additional observations from a re-analysis of the deposited data

How the results depend on the processing

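CPO and XPNPEP2 kept their calls in all 16 alternatives, and TREH and PLB1 their direction. Of the hydrolase genes, 1 was called higher with no filter, and 2 were called lower, TREH and MGAM, without both Control replicate 2 and SMP replicate 3. Leaving out 1 library gave 1 to 2 higher and 0 to 1 lower. Over all tested genes, 1808 were higher and 1235 lower without both libraries, 158 and 100 with no filter, 115 and 121 with a replicate block, 241 higher with a mean of at least 5 FPKM and 423 lower with median-ratio scaling (299 higher there, a share of higher calls that moved with the scaling). Leaving out 1 library gave 20 to 779 higher and 20 to 526 lower. The cause was not tested. Same-numbered samples had correlations of deviations from group means of -0.31, 0.32 and -0.04. With 3 samples per group these cannot decide whether the numbers pair the samples. The block changed no call of a hydrolase gene.

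Without both libraries, lower calls were 5 among other brush border enzymes, 7 among microvillus genes, 7 among uptake genes and 5 among transcription factors, with 1 microvillus gene and 5 transcription factors higher. Microvillus genes gave 1 higher with a mean of at least 5 FPKM, with epithelium scaling and with voom, and 1, 1 and 1 lower in these, against 2 lower with median-ratio scaling. Uptake genes gave 1 higher with median-ratio scaling, no filter or quantile normalization, 0 with the replicate block, and 1 lower with median-ratio or epithelium scaling. Transcription factors gave 1 higher with no filter, 2 with quantile normalization and 2 with epithelium scaling. Leaving out 1 library gave 0 to 1 higher and 0 to 2 lower for microvillus and uptake genes, and 0 to 1 lower for transcription factors. Depth limits the Control values of CPO, which rest on 17 reads in all.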

Other observations

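The protein-coding genes next to the called members in the RefSeq annotation of Sscrofa11.1, used for gene order only, were looked up by position. KLF7, next to CPO, encodes a Krüppel-like transcription factor. It had 3.90, 3.62 and 3.05 FPKM in SMP, against 1.23, 1.69 and 1.42 FPKM in Control, a log2 difference of 0.89 (adjusted p = 0.0246, limma). KLF7 was the only gene called among those looked up by position, while 3.5% of all tested genes were called higher. FASTKD2, on the other side of CPO, was at 4.54, 4.02 and 3.06 FPKM in SMP and 3.86, 2.22 and 3.18 FPKM in Control (adjusted p = 0.460).

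PHLDB1, next to TREH, was at 12.1, 11.2 and 8.98 FPKM in SMP and 11.5, 12.1 and 9.78 FPKM in Control (adjusted p = 0.875, limma). DDX6, on the other side of TREH, was at 17.8, 19.4 and 18.2 FPKM in SMP and 16.0, 14.6 and 13.4 FPKM in Control (adjusted p = 0.184). Next to PLB1, PPP1CB was at 41.3, 50.5 and 55.8 FPKM in SMP and 33.9, 29.1 and 29.9 FPKM in Control, and FOSL2 at 9.05, 10.4 and 11.1 FPKM in SMP and 12.8, 7.09 and 9.80 FPKM in Control (adjusted p = 0.0661 and 0.876).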
